A study of Homo sapiens with 2 samples.

Results

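The genes of endoplasmic reticulum (ER) stress and of the secretory pathway were examined in a human B-cell line, by every probe set annotated with exactly 1 gene symbol that belongs to a list of 40 genes. The rule found 76 of 36289 probe sets, and they represent 37 of 16716 measured genes. Of the other 3 genes, SYVN1 had 1 probe set, which is annotated with a microRNA gene as well and was therefore left out, and SEC61G and DERL3 were not analysed here. The members fall into 5 roles: stress sensors and effectors, ER degradation, the translocon, signal peptidase, and disulfide and folding enzymes.

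The study measured messenger RNA on Affymetrix Human Genome U133 Plus 2.0 arrays and holds 1 group of 2 samples, replicate 1 and replicate 2. No treatment is named. Both came from a lymphoblastoid line, that is, B cells kept in permanent growth by Epstein-Barr virus. The titles call the line GM06690 and the growth protocol calls it GM06990, in both samples. The labels do not say whether separate cultures were used, and the spread of the replicates may then be technical only. With 1 group there is no contrast and no p-value. The arrays are from 1 line, without a stressed, resting or plasma cell sample to set beside it, and in bulk RNA a few cells with much of a transcript cannot be told apart from many cells with little.

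The ER is where secreted and membrane proteins enter the secretory pathway. Nascent chains pass through the SEC61 channel, lose their signal peptide to signal peptidase, and are folded by chaperones and disulfide isomerases, while chains that fail are drawn back to the cytosol and degraded. When unfolded protein builds up, the sensors ATF6, IRE1 (encoded by ERN1) and PERK (encoded by EIF2AK3) start the unfolded protein response, in which ATF6 and XBP1 raise chaperone and degradation genes and ATF4 raises genes of amino acid supply and of cell death. Antibody-secreting cells are known for a large ER, and XBP1 is needed to build it.

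Promoters of 37 of the 40 genes could be matched by symbol in the RefSeq promoter table (GRCh38.p14, 250 bases before to 50 after each start), with 53 promoters in all because some genes have several starts. DERL1, DERL3 and SPCS1 had no entry. The promoters below are shown because they hold the letters of a known stress element. Every gene listed with one was above background on both arrays, but so were 36 of all 37 measured members, with or without a match. The ER stress element (ERSE) was searched as CCAAT, then 9 bases of any kind (N), then CCACG, and ERSE-II as ATTGG, then 1 such base, then CCACG, each on both strands. Read backwards, ERSE runs from CGTGG to ATTGG and ERSE-II from CGTGG to CCAAT. In both, CCAAT (or ATTGG) is known as a site of NF-Y and CCACG as a site of ATF6 or XBP1. ERSE was in 2 of the 53 promoters, those of PDIA6 and CRELD2, and in 27 of all 35116 promoters (0.0769%). ERSE-II was in 2 of the 53, those of HERPUD1 and SDF2L1, and in 19 of all promoters (0.0541%). The windows are chr2:10812736-10813035, minus strand, for PDIA6, which has a further start without the motif, chr22:49918384-49918683, plus strand, for CRELD2, chr16:56931892-56932191, plus strand, for HERPUD1, and chr22:21642052-21642351, plus strand, for SDF2L1. Each is written in the direction of the gene, with the motif in capitals. In HERPUD1 the first run of capitals is the amino acid response core described next and the second is ERSE-II.
PDIA6: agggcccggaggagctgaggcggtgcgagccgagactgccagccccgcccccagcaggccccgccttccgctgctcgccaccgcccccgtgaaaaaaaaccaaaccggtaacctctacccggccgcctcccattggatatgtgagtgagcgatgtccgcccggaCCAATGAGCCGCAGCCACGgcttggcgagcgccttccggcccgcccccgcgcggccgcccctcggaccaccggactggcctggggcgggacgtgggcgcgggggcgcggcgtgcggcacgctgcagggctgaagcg
CRELD2: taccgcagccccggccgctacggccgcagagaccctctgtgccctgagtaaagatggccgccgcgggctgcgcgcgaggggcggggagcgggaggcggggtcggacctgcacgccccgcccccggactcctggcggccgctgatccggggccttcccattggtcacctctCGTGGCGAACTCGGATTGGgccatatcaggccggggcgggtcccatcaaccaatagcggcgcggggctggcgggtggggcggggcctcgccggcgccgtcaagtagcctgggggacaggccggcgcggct
HERPUD1: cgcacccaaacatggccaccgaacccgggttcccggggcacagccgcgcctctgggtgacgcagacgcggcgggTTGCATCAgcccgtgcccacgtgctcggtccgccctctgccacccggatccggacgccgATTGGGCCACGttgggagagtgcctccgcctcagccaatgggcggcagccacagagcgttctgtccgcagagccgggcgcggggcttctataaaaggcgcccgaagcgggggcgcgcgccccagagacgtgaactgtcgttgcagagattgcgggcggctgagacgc
SDF2L1: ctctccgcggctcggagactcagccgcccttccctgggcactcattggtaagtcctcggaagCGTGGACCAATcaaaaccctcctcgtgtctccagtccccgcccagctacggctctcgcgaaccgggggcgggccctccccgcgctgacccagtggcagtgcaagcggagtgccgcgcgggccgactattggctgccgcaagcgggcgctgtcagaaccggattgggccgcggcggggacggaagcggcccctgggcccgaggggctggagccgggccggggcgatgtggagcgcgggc

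The core of the unfolded protein response element (UPRE), which XBP1 is known to bind, was searched as TGACGTGG (CCACGTCA on the other strand), and a core of the amino acid response element, which ATF4 is known to bind, as TGATGNAA (TTNCATCA on the other strand). The UPRE core was in 3 of the 53 promoters, of SSR3, SEC62 and SSR4, and in 256 of all promoters (0.729%). The amino acid response core was in 3 of the 53, of ASNS, CHAC1 and HERPUD1, and in 1270 of all promoters (3.62%). For this short core the count among the members is near the share of all promoters. No promoter listed here had overlapping matches. Stretches of 80 bases around the matches are given for the genes not yet shown, at chr3:156554123-156554202, minus strand, for SSR3, chr3:169966754-169966833, plus strand, for SEC62, chrX:153794503-153794582, plus strand, for SSR4, chr7:97872433-97872512, minus strand, for ASNS, and chr15:40953226-40953305, plus strand, for CHAC1. The SSR3 and SSR4 matches lie at 1 of several annotated starts.
SSR3: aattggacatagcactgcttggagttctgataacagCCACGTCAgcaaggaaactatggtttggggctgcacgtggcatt
SEC62: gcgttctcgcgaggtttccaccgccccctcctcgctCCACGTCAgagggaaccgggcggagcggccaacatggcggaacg
SSR4: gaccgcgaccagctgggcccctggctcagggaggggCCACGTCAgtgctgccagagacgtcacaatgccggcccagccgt
ASNS: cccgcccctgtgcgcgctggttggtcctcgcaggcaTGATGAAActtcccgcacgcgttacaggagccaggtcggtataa
CHAC1: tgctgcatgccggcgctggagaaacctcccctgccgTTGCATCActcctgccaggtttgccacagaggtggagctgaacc

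A match is a run of letters and was not tested for binding. The elements were defined in earlier work on stress response genes, which may include some listed here. The counts are therefore a description and not independent evidence. The map of motif positions shows where each begins: the ERSE matches 86 bases before the start in PDIA6 and 80 in CRELD2, and the ERSE-II matches 117 bases before it in HERPUD1 and 188 in SDF2L1. Among 71 further pathway genes with a promoter in the table, ERSE was found in 6 (CALR, CANX, ERO1B, HSP90B1, HSPA5 and XBP1) and ERSE-II in 1 (HYOU1). The UPRE core was in 9 of the 71 and the amino acid response core in 4. These are counts of genes, whereas the shares over all promoters count promoters, so the 2 are not directly comparable.

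**Figure D1:**
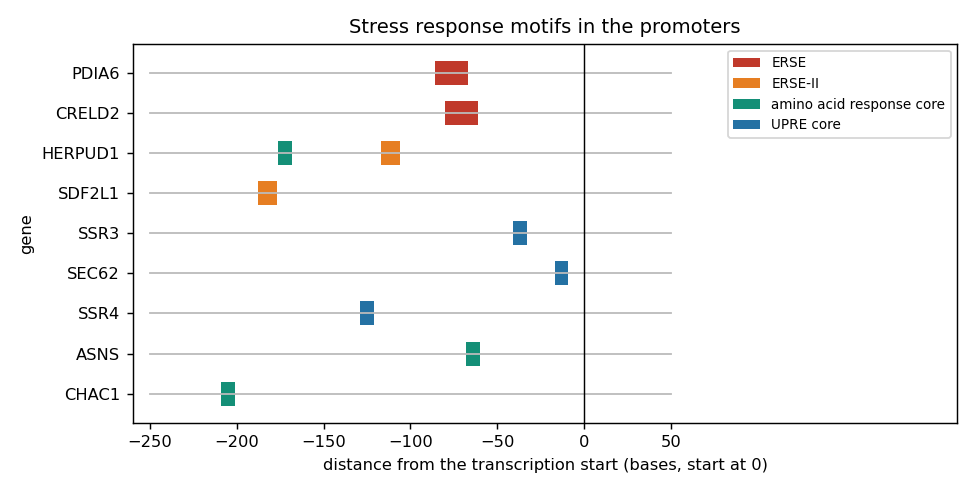
Positions of 4 stress response motifs in the promoters of 9 genes, on an axis of bases from the transcription start (0), where each grey line is the window searched and each coloured block is a match on either strand. HERPUD1 carries matches to both ERSE-II and the amino acid response core, and the others carry 1 kind each.

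Nearly all of the genes were transcribed above background in these cells. A probe set was called above background when, on each array, it exceeded the 95th percentile of 56 genes restricted to other tissues, each by its brightest probe set. That level was 5.57 (log2 signal) on replicate 1 and 5.42 on replicate 2, or intensities of 47.4 and 42.7. Signals below are log2 RMA signals, and the brightest probe set, by its mean over both arrays, stands for a gene. By this measure 36 of 37 genes were above background on both arrays, against 53.3% of all 16716 genes, and 72 of 76 probe sets, against 48.8% of the 29493 probe sets with 1 symbol. The exception was ERN1. The median signal was 11.30 over the 37 genes and 6.10 over all genes. Signals of different probe sets differ in probe affinity, so they do not rank the transcripts.

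**Figure D2:**
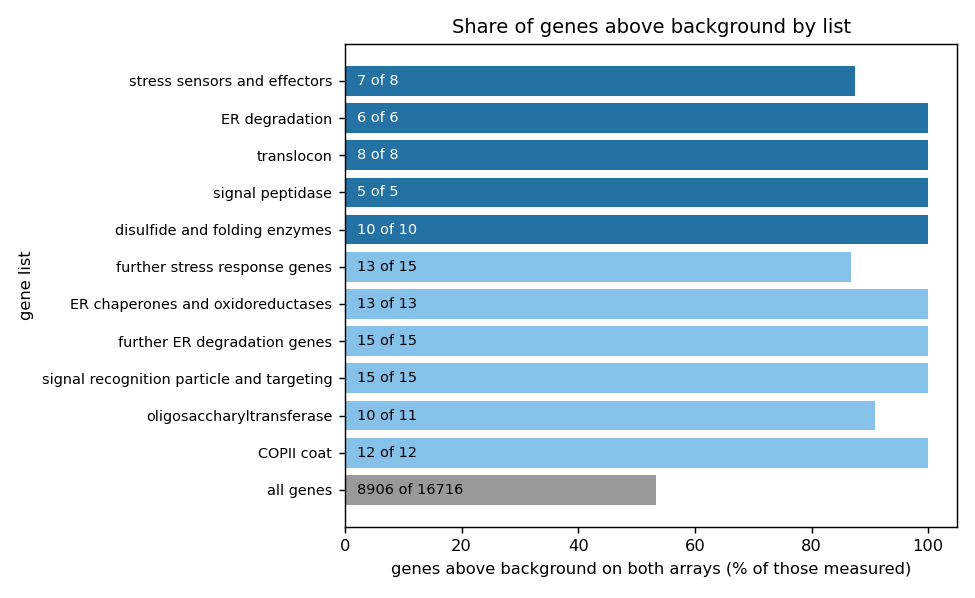
Percent of measured genes above background on both arrays, for the 5 roles (dark blue), for 6 further lists of the pathway (light blue) and for all genes (grey), with the counts written in the bars. The 3 lists short of 100% among the pathway and its roles are the stress sensors and effectors, the further stress response genes and oligosaccharyltransferase.

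The cells carried B-lineage markers, which go with their label, and plasma cell markers as well, which the label does not name. All 7 measured B-lineage markers were above background, including MS4A1 (CD20), with 13.12 and 13.26 on replicates 1 and 2. CD79A (11.32 and 11.27) and CD79B (9.62 and 9.55, by 1 of 3 probe sets) were among them. All 6 plasma cell markers were above background too, including SDC1 (9.09 and 9.06), PRDM1 (8.62 and 8.30) and XBP1 (11.81 and 11.82). Named after their values were seen, CD22, CD74 and IRF4 (2 of 3 probe sets each) and PAX5 (1 of 2) were above background by some probe sets only. None of 6 T-cell, 5 NK-cell or 5 myeloid markers was, among them the T-cell markers CD3D (5.09 and 4.80), CD3E (4.51 and 4.46) and CD3G (4.56 and 4.43). The NK-cell markers included NCAM1 (4.79 and 4.89), KLRD1 (4.19 and 4.07) and NKG7 (4.13 and 4.23), and the myeloid markers CD14 (3.82 and 3.72), LYZ (3.72 on both arrays) and CSF1R (3.85 on both). Of 5 fibroblast markers COL1A1 (7.35 and 7.13, by 2 of 5 probe sets) and DCN (5.79 and 5.80, by 1 of 4) were above background, whereas COL1A2 (4.98 and 5.09) and COL3A1 (3.75 and 3.99) were not. Of 5 epithelial markers CDH1 (7.04 and 6.98, by 1 of 2 probe sets) was, whereas EPCAM (3.98 and 3.78) and KRT8 (5.19 on both arrays) were not. Over these lists the mean signals ran from 8.96 to 14.23 for B-lineage markers, 8.46 to 13.08 for plasma cell, 3.90 to 4.94 for T-cell, 3.58 to 4.84 for NK-cell, 3.72 to 5.01 for myeloid, 3.87 to 7.24 for fibroblast and 3.35 to 7.01 for epithelial markers, and their part in the results was not tested.

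Among the stress sensors and effectors 7 of 8 genes were above background. ATF6, a membrane-bound transcription factor that is cut free under ER stress, had signals of 9.78 and 9.85 on replicates 1 and 2. Its further probe sets were also above background, with 8.72 and 8.67 for one and 6.82 and 6.67 for the other. ERN1, the sensor kinase and ribonuclease that splices XBP1 messenger RNA, had 4.97 and 5.10 by its only probe set. Both ERN1 values lay under the level of their array (signal minus level -0.60 and -0.32) and came above it, by at least 0.38, when the 75th percentile of the tissue-restricted genes set the level. A gene not above background may still be transcribed. ATF4, the transcription factor of the integrated stress response, had 12.99 and 12.97.

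The members of this group named next, which ATF4 is known to raise, were above background too. Whether ATF4 or the stress response is active in these cells was not tested, since signal above background does not show it. ASNS, which makes asparagine, had 11.31 and 11.28 (mean 11.30 ± 0.02, SD, n = 2), and TRIB3, a pseudokinase that restrains the response, had 9.22 and 9.18, with 6.35 and 6.26 for its further probe set. SESN2, a leucine sensor and inhibitor of mTORC1, had 8.02 and 8.03, and its further probe set had 7.05 and 6.74. All probe sets of these 3 genes were above the level on both arrays. DDIT3, which encodes the death-promoting factor CHOP, had 7.81 and 7.57 (7.69 ± 0.17), and CHAC1, which breaks down glutathione, had 6.45 and 5.89 (6.17 ± 0.40), or intensities of 87.5 and 59.2. CHAC1 was the member above background that came nearest to it, by 0.47 on replicate 2. When the 99th percentile of the tissue-restricted genes was taken as the level, neither CHAC1 nor DDIT3 was above it on both arrays. The signal minus the level, on the array where it was lower, was -1.90 for CHAC1 and -0.22 for DDIT3. DDIT3 was under that level on replicate 2 alone. SESN2 stayed above that level by 0.24 and TRIB3 by 1.39. The member that stayed above it by the least was EDEM2, of ER degradation, by 0.13.

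**Figure D3:**
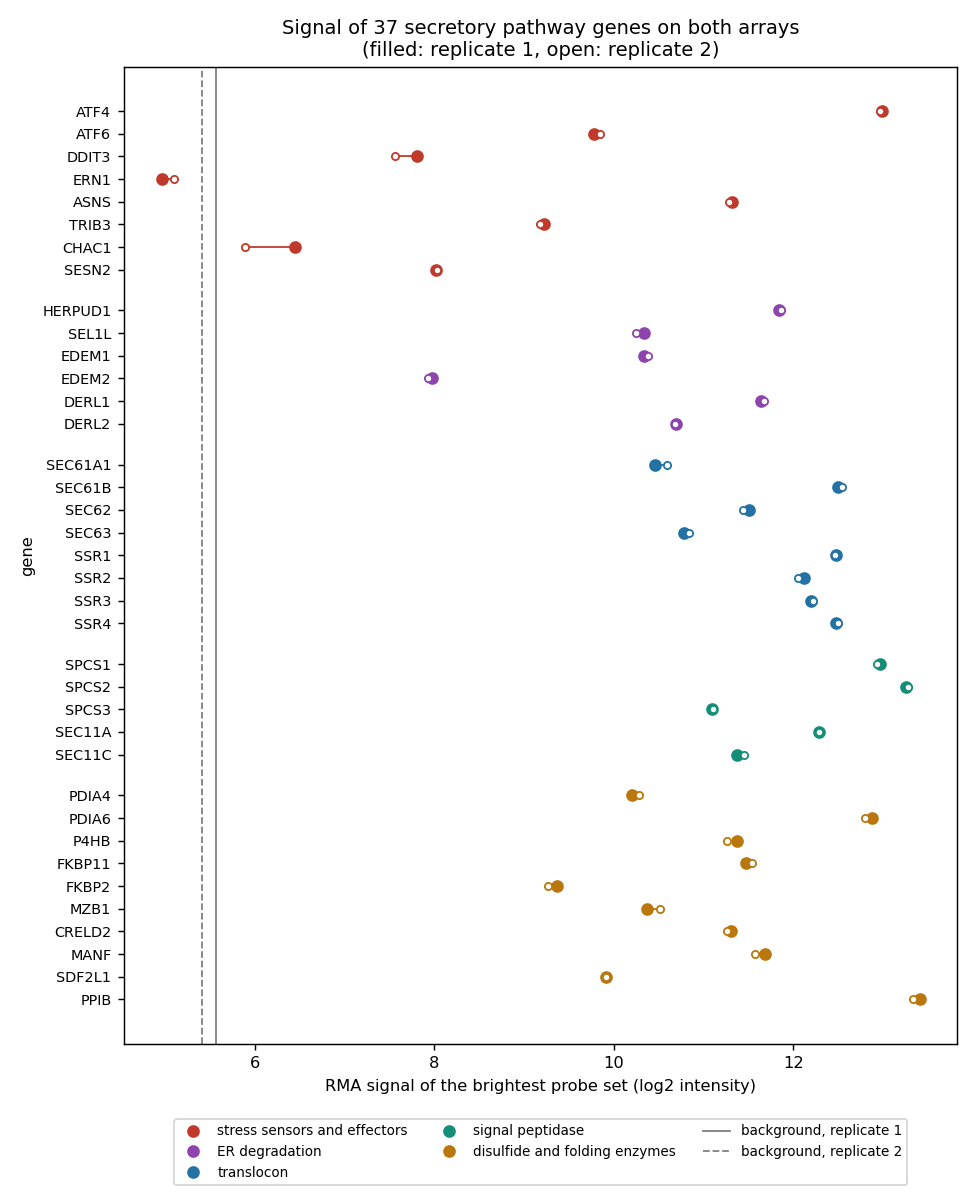
Log2 RMA signal of the brightest probe set of each of the 37 genes on replicate 1 (filled) and replicate 2 (open), coloured by role, with the background level of each array as a grey line (5.57 solid, 5.42 dashed). ERN1 is left of both lines, CHAC1 is the next nearest, and the pair of points nearly coincides for most genes.

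All 6 measured genes of ER-associated degradation were above background. HERPUD1, a membrane protein that brings the degradation complex together, had 11.84 and 11.87 (11.86 ± 0.02), and its promoter is among those with ERSE-II. SEL1L, the partner of the ubiquitin ligase HRD1, had 10.34 and 10.25. The mannosidase-like proteins that mark misfolded glycoproteins were both above the level, EDEM1 with 10.33 and 10.38 and EDEM2 with 7.97 and 7.93. The derlins, membrane proteins of the exit route to the cytosol, were represented by DERL1 with 11.63 and 11.67 and DERL2 with 10.69 and 10.68. HRD1 itself is encoded by SYVN1, which was left out because its probe set is annotated with a microRNA gene as well. That probe set had 8.46 and 8.42.

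The probe sets of this group did not all give the same call. HERPUD1 had a further probe set at 5.77 and 5.81, above the level by a small margin. Of the SEL1L probe sets 1 of 4, with 4.92 and 5.07, and 1 of 4 DERL1 probe sets, with 4.23 and 4.13, were not above background. The remaining SEL1L probe sets (8.68 and 8.74 for one, 7.49 and 7.48 for the other) and DERL1 probe sets (10.50 and 10.40, and 9.70 and 9.72) were, and so was the further DERL2 probe set (8.13 and 8.02). The calls for SEL1L and DERL1 rest on 3 of 4 probe sets each, and those for HERPUD1 and DERL2 on 2 of 2.

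The translocon genes were above background in 8 of 8 measured cases, with mean signals from 10.53 to 12.52. SEC61A1, the pore subunit, had 10.46 and 10.60, and the small subunit SEC61B had 12.50 and 12.54. SEC62 and SEC63, which help post-translational entry, had 11.51 and 11.43, and 10.78 and 10.83. All 4 genes of the translocon-associated protein complex, which aids the entry of some signal peptides, were above the level: SSR1 with 12.47 and 12.46, SSR2 with 12.11 and 12.06, SSR3 with 12.20 and 12.22, and SSR4 with 12.48 and 12.49. The SEC61A1 homologue SEC61A2, named here after its values were seen, had 6.22 on both arrays by 1 probe set.

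SEC62 and SSR1 had the most probe sets of the group. Of the 5 for SEC62, 4 were above background on both arrays, and the other, with 5.62 and 5.30, was above on replicate 1 alone. All 6 for SSR1 were above, the dimmest with 7.89 and 7.54. The further SEC61A1 probe set had 10.47 and 10.44, against 10.46 and 10.60 for the brighter, so the difference between the arrays had opposite signs in the pair.

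Signal peptidase, which cuts signal peptides from chains as they enter the ER, had 5 of 5 genes above background. The catalytic subunits have 2 genes, SEC11A with 12.29 and 12.28 and SEC11C with 11.37 and 11.45. Both paralogues were well above the level. The further subunits were SPCS1, with 12.96 and 12.93, SPCS2, with 13.26 and 13.28, and SPCS3, with 11.09 and 11.10. Each differed between the arrays by less than 0.15, and the median SD of the group was 0.01.

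**Figure D4:**
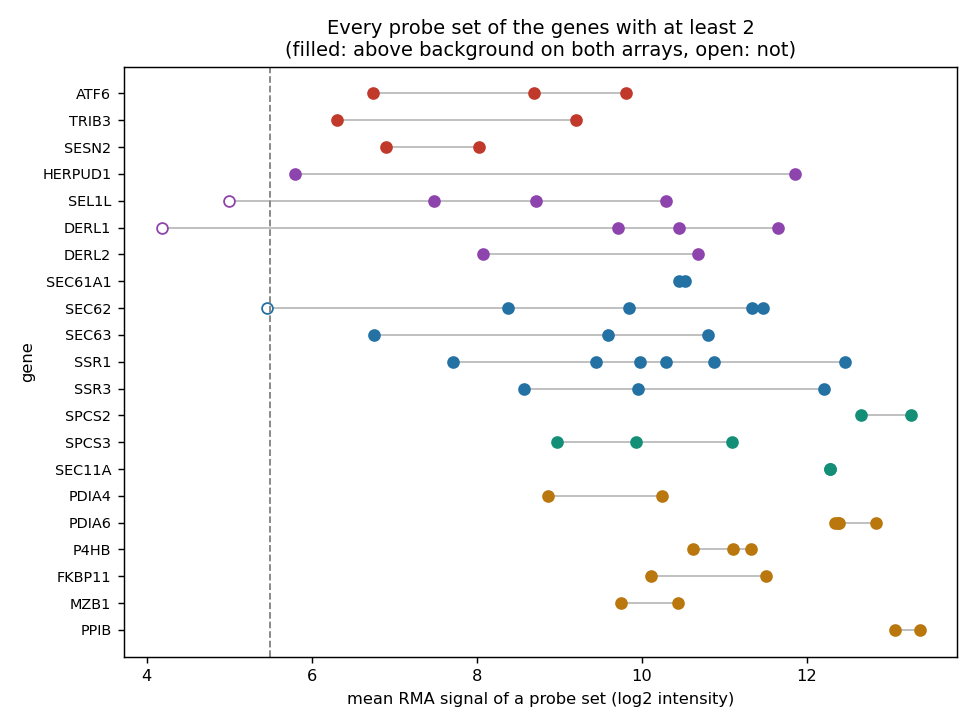
Mean log2 RMA signal of every probe set of the 21 genes that have at least 2, filled when above background on both arrays and open when not, coloured by role as in the plot of signals by gene, with the mean of the background levels as a dashed line. The 3 open points belong to SEL1L, DERL1 and SEC62, and all other probe sets shown are filled.

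The disulfide and folding enzymes were above background in 10 of 10 cases. The disulfide isomerases were P4HB, with 11.38 and 11.26 (11.32 ± 0.08), PDIA4, with 10.20 and 10.28, and PDIA6, with 12.88 and 12.80. All of their probe sets were above the level: 3 for P4HB, 2 for PDIA4 and 4 for PDIA6. The prolyl isomerases, which turn peptide bonds before proline, were PPIB (cyclophilin B), with 13.41 and 13.33, FKBP2, with 9.37 and 9.27, and FKBP11, with 11.47 and 11.54. FKBP11 and MZB1 are known as genes of antibody-secreting cells. MZB1, a cofactor of GRP94 in antibody assembly, had 10.37 and 10.51 (10.44 ± 0.10), and its further probe set 9.71 and 9.80.

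The small ER stress-inducible proteins were above background as well. MANF, a secreted protein held in the ER by the chaperone BiP, had 11.68 and 11.57 (11.63 ± 0.08). CRELD2 had 11.31 and 11.26, and SDF2L1, a component of a chaperone complex with DNAJB11, had 9.91 on both arrays. CRELD2 and SDF2L1 are among the genes whose promoter holds an ERSE or ERSE-II match.

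The difference between the replicates was under 0.15 on the log2 scale in 35 of the 37 genes, against 65.6% of all genes, and in 34 of the 36 above background, against 78.0% of all genes above it. No member had a log2 difference above 1, or above 0.58, where 0.0419% and 1.31% of all genes did, so a count of 0 among 37 genes is near the share of all genes. The SD between the arrays had a median of 0.03 over the 37 genes, 0.05 over all genes above background and 0.07 over all genes. These comparisons were not matched for signal, and the members were brighter. Their median signal was 11.30, against 8.95 for all genes above background and 6.10 for all genes. The median difference (replicate 2 minus replicate 1) was -0.01 over the 36 genes above background, of which 19 were lower in replicate 2, against -0.02 and 57.4% over all genes above background.

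The 2 exceptions were stress effectors, both lower in replicate 2. CHAC1 differed by -0.56, and of 1090 genes with a mean signal within 0.5 of it 31 (2.84%) differed by as much or more, CHAC1 included. DDIT3 differed by -0.24, and 192 of 1410 such genes (13.6%) differed by as much. Both genes were picked as the largest differences among the 37 members, so these shares are no test of them. The second SESN2 probe set was also lower in replicate 2, by a difference of -0.32, but the brighter one was not (0.02). Such differences were not confined to stress effectors. Of all member probe sets 6 differed by more than 0.2, all lower in replicate 2. They included dimmer probe sets of the translocon genes SEC62 (-0.32) and SSR1 (-0.35 and -0.21), whose brightest probe sets differed by -0.07 and -0.01. ATF4 (-0.02), ASNS (-0.03) and TRIB3 (-0.04) differed by little. With 1 pair of arrays these values have no error of their own.

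**Figure D5:**
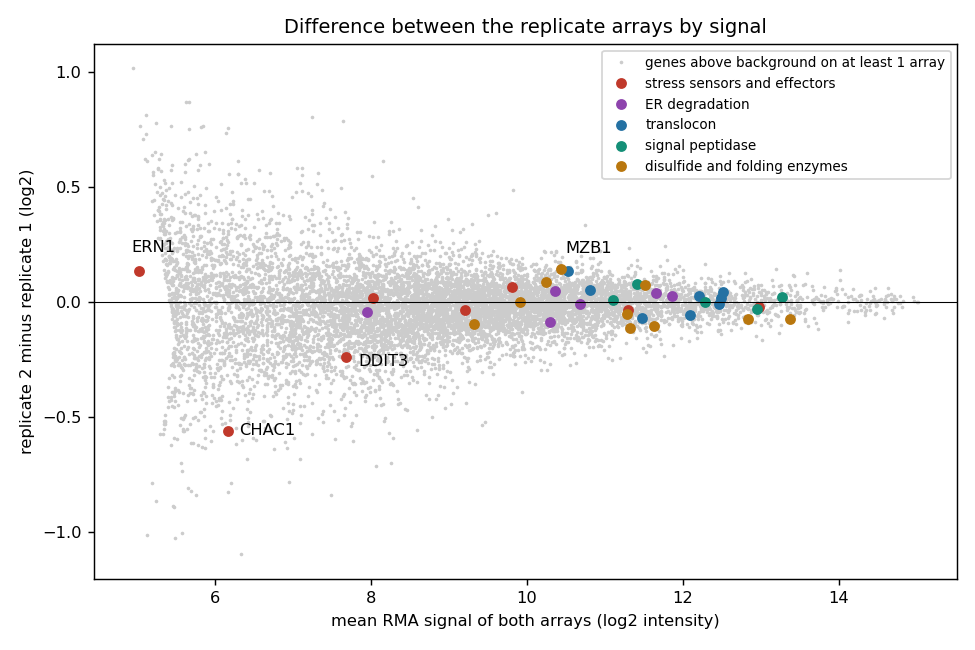
Difference between the arrays (replicate 2 minus replicate 1, log2) against the mean log2 RMA signal, for genes above background on at least 1 array (grey) and for the 37 members by role (coloured). CHAC1 (-0.56) and DDIT3 (-0.24) lie lowest among the members, and the other 35 lie within 0.15 of 0.

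Several probe sets of 1 gene could differ in opposite directions. Of the 21 genes with at least 2 probe sets, 6 had all of them differing in 1 direction between the arrays, against 37.6% of the 7350 genes with at least 2. They were PDIA6 (4 of 4 lower in replicate 2), P4HB (3 of 3), TRIB3 and DERL2 (2 of 2 each), and, higher in replicate 2, HERPUD1 and MZB1 (2 of 2 each). In SSR1, 2 probe sets differed more than the others: 9.55 and 9.34 for one, 7.89 and 7.54 for the other, while the brightest differed by -0.01. Of the same 21 genes 18 had every probe set above background and 3 had some, against 34.4% and 32.2% of those 7350 genes.

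In the rest of the pathway 78 of 81 measured genes, in 6 lists, were above background on both arrays, against 53.3% of all genes. Of 15 further stress response genes 13 were, among them XBP1, EIF2AK3, with 10.93 and 10.91, and PPP1R15A, which restarts translation under stress, with 7.69 and 7.35. NUPR1 (4.02 and 3.89) and VLDLR (4.08 and 4.38) were not above it. PPP1R15A differed by -0.34 between the arrays. Of the 13 genes above background 8 were lower in replicate 2, with a median difference of -0.02, against 57.4% and -0.02 over all genes above background. Named after their values were seen, ATF3 (8.28 and 8.09) and DDIT4 (10.66 and 10.46) were among the lower, and CEBPG (9.06 and 9.15), CEBPB (8.51 and 8.58) and ATF5 (7.78 and 7.83) among the higher.

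ER chaperones and oxidoreductases were above background in 13 of 13 cases, including the BiP gene HSPA5 (13.58 and 13.54), the GRP94 gene HSP90B1 (12.25 and 12.31) and HYOU1 (10.79 and 10.75). These 3 hold an ERSE or ERSE-II match in their promoters, as given above. All 15 further degradation genes were above background, such as EDEM3 (8.90 and 8.82), OS9 (9.83 and 9.90) and ERLEC1 (10.35 and 10.39). OS9 and ERLEC1 are lectins that read trimmed glycans. All 15 genes of the signal recognition particle and of targeting were too, such as SRP9 (13.15 and 13.19), SRP14 (12.88 and 12.85) and SRP19 (11.80 and 11.78).

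Oligosaccharyltransferase, which attaches N-glycans, had 10 of 11 genes above background, including the catalytic subunits STT3A (10.36 and 10.39) and STT3B (11.48 and 11.32) and the subunit RPN1 (11.23 and 11.23). The exception was TUSC3, with 4.64 and 4.48, by none of 3 probe sets. MAGT1, named after its values were seen and known as the subunit that takes the place of TUSC3, had 11.56 and 11.51, with 3 of 3 probe sets above background. All 12 genes of the COPII coat, which forms vesicles that leave the ER, were above it, such as SEC13 (11.91 and 11.96), SEC23A (9.66 and 9.62) and SEC23B (11.21 and 11.12).

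Some values may carry signal from near-identical copies. Pseudogenes named after them are annotated for ATF4 (4), ASNS (5), SEC63 (2), SSR1 (2), SSR4 (1) and SPCS2 (4), and whether their probes share these sequences was not tested. Of the 76 probe sets, 34 end in _s_at and 4 in _x_at, endings that mark probes matching several transcripts, of 1 gene or of several. Without such probe sets 30 genes were left to measure, of which 29 were above background.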

How the data were processed

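Both samples were measured on 1 array each. The authors deposited 1 intensity per probe set and array, made with RMA per the submitters' processing notes, and its version and genome build are not given in the sources used here. This method includes quantile normalization, so a change in total messenger RNA cannot be seen. The values are linear, and log2 was taken here (Python 3.11.15, pandas 2.3.3, numpy 2.4.6). Of 36289 probe sets, 29493 had 1 gene symbol, 1407 several and 5389 none, by the platform annotation with symbols updated through Entrez ID (29461 matched, RefSeq GRCh38.p14). They are part of the array, so a gene may have further probe sets. RMA gives no detection call. The background level used 56 measured of 65 listed tissue-restricted genes. No test between groups was run, and the number of arrays limits the precision. The calling rule was checked only on simulated arrays whose silent and expressed genes were well separated in signal. That check cannot show how reliable the calls are for genes near the level. The members and lists were chosen with earlier results of these data known. All members were named. Of each further list, the first 3 measured genes in the order written were named, with the pathway genes not above background and the markers of other cell types above it. Genes named outside this rule are marked in the text. Protein sequences, planned as a further feature, were not used here. Alternatives were other percentiles, probe sets, summaries and normalizations, and each array alone.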

Additional observations from a re-analysis of the deposited data

How the results depend on the processing

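The count of genes above background was 36 of 37 as reported and stayed between 34 and 37 under 7 of 8 alternatives, with 36 after leaving out either replicate. It was 37 at the 75th and 34 at the 99th percentile of the tissue-restricted genes, where 63.1% and 37.7% of all genes were above. With _x_at and _s_at probe sets left out it was 29 of 30, since fewer genes could be measured. The count of probe sets was 72 of 76, ran from 72 to 73 after leaving out a replicate, was 75 and 63 at the 75th and 99th percentiles, and was 35 of 38 without _x_at and _s_at, again because fewer were left. Single genes kept their side of background in 286 of 289 values under these alternatives. The others were ERN1, above by 0.38 at the 75th percentile, and CHAC1 (-1.90) and DDIT3 (-0.22), under it on at least 1 array at the 99th. The median difference ran from -0.03 to 0.00 and the median SD from 0.03 to 0.04 over a second quantile normalization, a loess correction, the mean of all probe sets and the exclusion of _x_at and _s_at probe sets. No member differed by more than 1 under any of these 4. A level set by another list of tissue-restricted genes was planned and not run, since only 1 list was used here. No paired analysis was possible because there is 1 group.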
